A study of Homo sapiens with 6 samples.

Results

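The genes described here are 40 genes of mitosis and of the G2/M transition, given as a fixed list that leaves out the kinesins named KIF. They were found by symbol in the expression files of all 6 libraries, which hold 28181 genes, and all 40 were among the 23040 genes tested. The cells were UE7T-9, mesenchymal stem cells of human marrow kept as a line by added telomerase reverse transcriptase and papillomavirus E7 genes, and both groups carry these. In UE7T-9 SHC4 the adaptor protein gene SHC4 was overexpressed from a lentiviral plasmid with a CMV promoter and a puromycin resistance gene. The other group, UE7T-9 Cont, is labelled Nontarget with a WT genotype, and the methods describe its vector as the same plasmid carrying GFP. Both groups were grown in DMEM, each had 3 libraries of total RNA, and no treatment time is given. Values of replicates 1, 2 and 3 are given in that order, first for UE7T-9 Cont (the controls) and then for UE7T-9 SHC4 (under SHC4). The design text speaks of clones without saying how many, and whether the libraries of a group share a clone is not given. The comparison of the groups asks which genes differ when SHC4 is overexpressed.

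Cells enter mitosis when CDK1, bound to a B-type cyclin, is switched on by CDC25 phosphatases. The spindle checkpoint then holds the anaphase-promoting complex inactive until each kinetochore, the protein plate on a centromere, is attached to microtubules, after which securin and the cyclins are degraded and the cell divides. Many of these genes are transcribed together late in the cell cycle through the MuvB, MYBL2 and FOXM1 factors, and the papillomavirus E7 protein binds the retinoblastoma proteins that restrain the cycle. In whole cultures such as these, fewer cells in G2 and mitosis and less RNA per such cell cannot be told apart.

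The promoters of these genes are shown first, since the list is known for a shared promoter layout. A cell cycle homology region (CHR), searched here as TTTGAA or TTTAAA, and CCAAT boxes are its usual elements. RefSeq promoter windows (GRCh38.p14, 250 bases before to 50 bases after an annotated start) were found for 32 of the 40 genes. The 100 bases before the start are printed 5′ to 3′ on the gene's strand for 8 genes to which the results below return: the reference genes CDK1, CCNB1, TOP2A and MKI67, 3 genes with lower and 1 with higher values in UE7T-9 SHC4. The windows of the plus strand are chr10:60778378-60778477 for CDK1, chr5:69167050-69167149 for CCNB1, chr7:36389762-36389861 for ANLN and chr20:3796210-3796309 for CDC25B. On the minus strand they are chr10:128126424-128126523 for MKI67, chr17:40417897-40417996 for TOP2A, chr2:110678064-110678163 for BUB1 and chr4:103198344-103198443 for CENPE. Capitals mark the CHR letters and CCAAT on either strand, where CCAAT reads ATTGG and TTTGAA reads TTCAAA on the opposite strand, and neighbouring matches may overlap.
CDK1: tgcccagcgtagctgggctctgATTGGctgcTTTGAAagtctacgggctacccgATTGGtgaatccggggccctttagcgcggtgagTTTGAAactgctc
CCNB1: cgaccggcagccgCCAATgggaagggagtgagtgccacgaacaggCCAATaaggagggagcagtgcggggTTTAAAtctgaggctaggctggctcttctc
MKI67: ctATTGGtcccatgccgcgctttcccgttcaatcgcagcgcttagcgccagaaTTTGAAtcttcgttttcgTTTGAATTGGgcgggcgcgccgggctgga
TOP2A: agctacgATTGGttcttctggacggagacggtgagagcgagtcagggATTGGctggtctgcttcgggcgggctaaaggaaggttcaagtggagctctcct
BUB1: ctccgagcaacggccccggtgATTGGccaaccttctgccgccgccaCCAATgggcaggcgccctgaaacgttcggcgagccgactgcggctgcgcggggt
CENPE: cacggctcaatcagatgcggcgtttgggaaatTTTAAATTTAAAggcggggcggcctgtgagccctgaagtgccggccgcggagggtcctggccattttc
ANLN: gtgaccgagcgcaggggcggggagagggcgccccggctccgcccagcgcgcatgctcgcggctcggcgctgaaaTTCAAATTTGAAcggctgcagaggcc
CDC25B: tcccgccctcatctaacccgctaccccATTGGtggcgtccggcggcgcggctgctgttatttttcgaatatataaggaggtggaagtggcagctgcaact

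CHR letters stood in the 300-base windows of 27 of the 32 genes (84.4%), against 27.9% of the 27305 symbols with a window in the RefSeq table. CCAAT stood in 25 (78.1%, against 39.7%) and both in 21 (65.6%, against 11.2%). The E2F letters GCGGGAA, searched on both strands, stood in 4 (12.5%, against 7.82%), while they were found in 47.5% of the 40 DNA replication and S-phase genes with a window. In those S-phase genes CHR letters stood in 17.5%. These are counts of letters, with no test. In 24 genes a CHR match began between 50 bases before and 50 bases after the start, and in 22 genes CCAAT began within the 100 bases before it. CCNA2, MYBL2, BUB1, AURKB and CKAP2 had no CHR letters in their windows. The 5 genes without CHR letters had a median log2 fold change of -0.39 between the groups, and all 5 had lower means in UE7T-9 SHC4. The 27 genes with them had a median of -0.24, and 23 were lower. Other spellings of a CHR were not searched, and a link of these letters to the change was not tested.

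**Figure D1:**
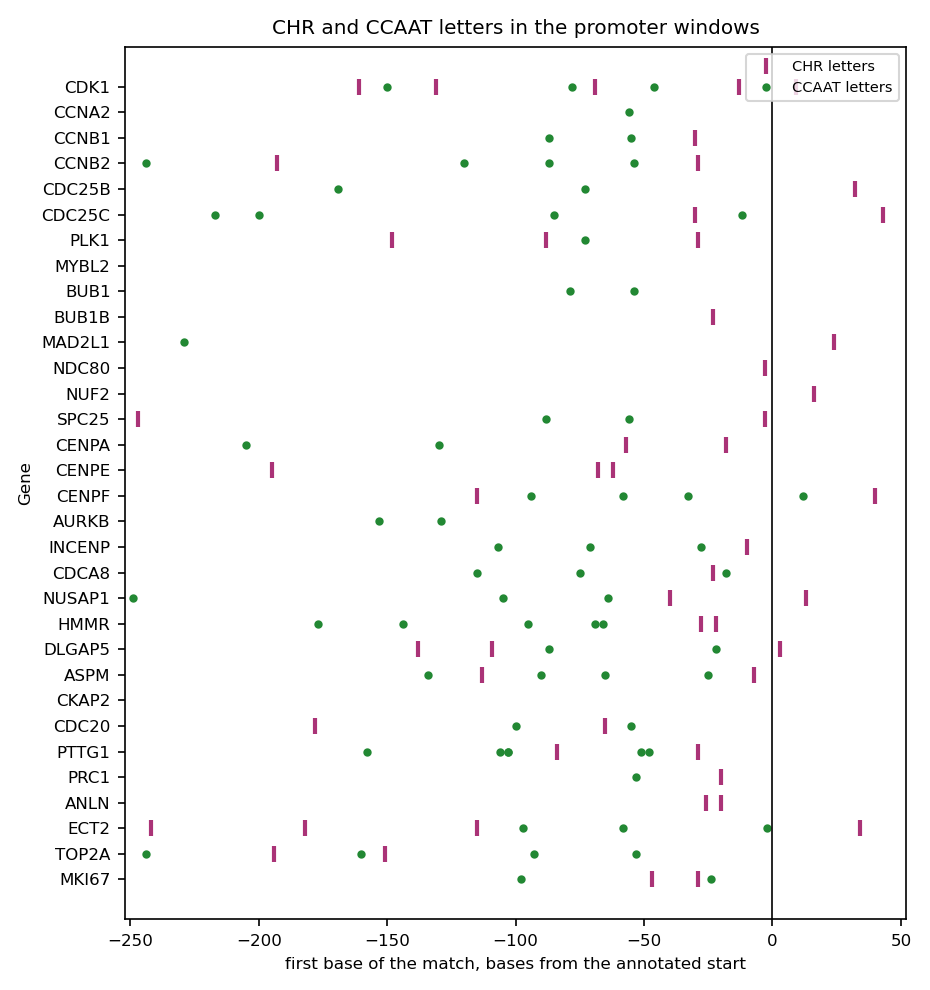
Positions of the CHR letters (bars) and CCAAT (points) in the RefSeq promoter windows of the 32 genes with an entry; the horizontal axis is the first base of a match, in bases from the annotated start, for each of a gene's entries. CHR letters gather near the start, with 24 genes having one from 50 bases before to 50 bases after it.

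Sequencing depth was 18144993 to 27721397 reads per library, as recovered from the deposited values. SHC4 was at a normalized count of 56.5, 157 and 129.9 in the controls and at 134870.0, 119166 and 155006 under SHC4, as labelled. A normalized count is a gene's read count divided by a size factor for its library. Of 10 mesenchymal markers 8 were higher and 2 lower in their means in UE7T-9 SHC4, limma called 0 (smallest adjusted p 0.137) and DESeq2 called PDGFRB and LEPR higher (2.06% of the genes it could adjust). The range of their summed level was 224876 to 700526 in the controls and 414352 to 622606 under SHC4. Of the markers of blood, endothelial and epithelial cells, PTPRC, SPI1, CDH5 and EPCAM had normalized counts of at most 6.82 in each library. Other markers of these lists, not named here, made up most of the sums that follow. The 6 of 8 blood cell markers found summed to 219 to 410.4 in the controls and 275 to 347 under SHC4. The 4 of 5 endothelial markers summed to 60.0 to 82.4 and 50.1 to 99.9, and the 4 of 5 epithelial markers to 45.3 to 74.1 and 21.6 to 72.9. UE7T-9 Cont replicate 1 stood apart from its group, with COL1A1, the fibrillar collagen gene, at 315042 against 87857 and 67813 in replicates 2 and 3. Mitochondrial mRNA took 1.14%, 2.23% and 2.39% of reads in the controls and 1.67%, 3.10% and 2.70% under SHC4, so the groups overlapped and replicate 1 was the lowest in both. The summed mesenchymal markers were also highest in replicate 1 of both groups. The part of these shares in the results was not tested.

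The 40 genes took up a slightly smaller share of the transcriptome in UE7T-9 SHC4. They held 0.372%, 0.313% and 0.415% of reads in the controls and 0.311%, 0.266% and 0.279% under SHC4. The groups did not overlap on this measure, with their nearest libraries at 0.313% and 0.311%. A share of reads is scaled by library size, and on that scale all genes had a median log2 fold change of -0.10. With the deposited size factors it was -0.00395. On the mean log2(normalized count + 1) of the 40 genes the groups did overlap, with 10.45, 10.01 and 10.36 in the controls and 10.21, 9.93 and 9.98 under SHC4. UE7T-9 SHC4 replicate 1 stood above UE7T-9 Cont replicate 2 on that scale.

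By gene, the mean was lower in UE7T-9 SHC4 for 36 of the 40 (90%), where 50.3% of all genes tested were lower. The median log2 fold change, taken as UE7T-9 SHC4 against UE7T-9 Cont on log2(normalized count + 1), was -0.26, against -0.00395 for all genes. Without UE7T-9 Cont replicate 1 the count fell to 27 of 40 (51.1% of all genes) and the median was -0.16. The 9 genes that turned to a higher mean without this library were CCNB2 (0.05), PLK1 (0.04), FOXM1 (0.06), MYBL2 (0.08), BUB1B (0.11), ASPM (0.19), CDC20 (0.0011), PRC1 (0.30) and MKI67 (0.035), given here with the log2 fold change left. The groups of all 9 overlapped. After adjustment over all genes limma called 0 of the 40 (0.0651% of all genes were called), the smallest adjusted p being 0.176 for CDK1, while 11 were lower and 1, CDC25B, higher at an unadjusted p under 0.05 (6.96% and 7.47% of all genes). DESeq2 on the recovered reads called CDK1 and BUB1 lower, 5% of the 40, and 0 higher, against 2.08% and 2.06% of the genes it could adjust. Both calls were lost when any 1 library other than UE7T-9 Cont replicate 1 was left out. The quasi-likelihood test of edgeR called 0 (0.0694% of all genes) with a smallest adjusted p of 0.152. In 11 genes (27.5%, against 10.2% of all genes) each UE7T-9 SHC4 library lay below each UE7T-9 Cont library, in 2 (9.13% of all genes) each lay above, and in 27 the groups overlapped. Scaled by library size in place of the deposited size factors, 19 lay below and 1 above, against 13.2% and 6.66% of all genes. Changes of these genes were small: the 95% interval of the log2 fold change kept out a fall of 1 for 37 genes and a rise of 1 for all 40.

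**Figure D2:**
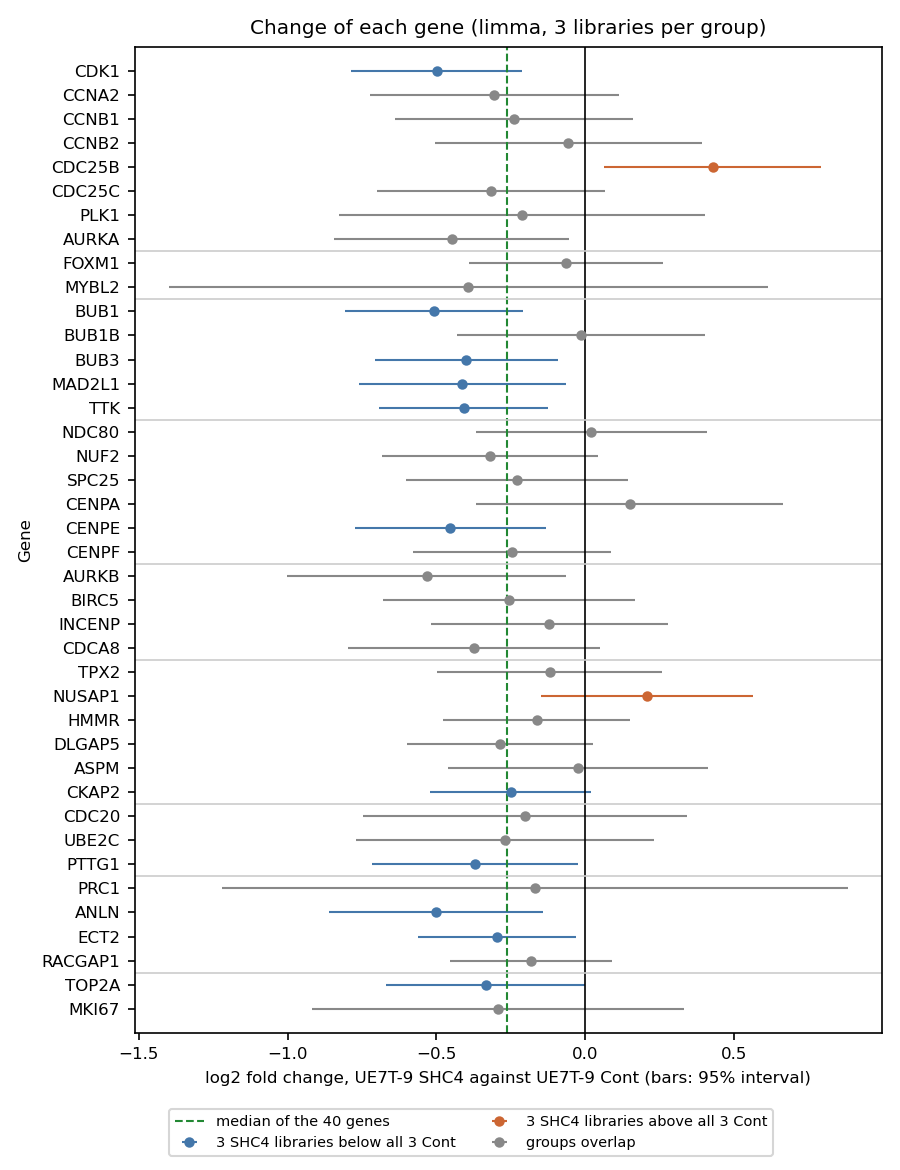
Log2 fold change of each of the 40 genes in UE7T-9 SHC4 against UE7T-9 Cont (horizontal axis, points) with 95% intervals from limma (bars), 3 libraries per group, ordered by role; the dashed line is the median of -0.26. Blue marks the 11 genes with each UE7T-9 SHC4 library below the UE7T-9 Cont libraries, orange the 2 with each above, and grey the 27 whose groups overlap.

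Of the genes of mitotic entry, 7 of 8 had lower means under SHC4, and the median log2 fold change was -0.27. CDK1, the kinase that drives entry, had normalized counts of 2280.0, 1980.2 and 2473 in the controls and of 1527, 1527 and 1697 under SHC4. The 3 UE7T-9 SHC4 libraries were all below the 3 controls. The log2 fold change was -0.50 (95% interval -0.79 to -0.21), with an adjusted p of 0.176 by limma and 0.0332 by DESeq2. CCNB1, which encodes the cyclin B1 partner of CDK1, read 2508, 1855 and 2558 in the controls and 2388, 1669 and 1818 under SHC4. Here the groups overlapped, since UE7T-9 SHC4 replicate 1 was above UE7T-9 Cont replicate 2, and the log2 fold change was -0.24 ± 0.18 (SE). CCNA2 and CCNB2, for cyclins A2 and B2, also overlapped between groups, at -0.30 and -0.06.

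Of the phosphatase genes of this step, CDC25B, whose product removes the inhibitory phosphates from CDK1 in early mitotic entry, was the gene with the highest log2 fold change of the 40. Its normalized counts were 4555, 3201 and 3189 in the controls and 5062, 4596 and 4876 under SHC4. Each UE7T-9 SHC4 library was above the controls, though the first control came close to the second library under SHC4. The log2 fold change was 0.43 (95% interval 0.06 to 0.79), with a limma adjusted p of 0.282. Leaving out UE7T-9 Cont replicate 1 gave 0.60 and an adjusted p of 0.0260, when 2.99% of all genes were called higher. CDC25C, which acts later in entry, had a log2 fold change of -0.32 and overlapping groups. PLK1 and AURKA, kinases of entry and of centrosome maturation, were at -0.21 and -0.45. The interval of AURKA lay below 0 (-0.84 to -0.05), but its highest UE7T-9 SHC4 library, at 1115, was above its lowest control, at 1039.5. Where strand was not used in counting, reads in exon bases shared with a gene on the opposite strand can be dropped or miscounted. Such genes share 12.5% of the exon bases of PLK1, 9.1% of CCNA2, 8.8% of CDC25C and 15.9% of FOXM1. For PLK1 11.6% is shared with AC008870.3, whose mean normalized count was only 0.785.

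FOXM1 and MYBL2, the transcription factor genes of the list, gave log2 fold changes of -0.06 ± 0.14 and -0.39 ± 0.45 (SE), within the spread between libraries, and both were above 0 without UE7T-9 Cont replicate 1. FOXM1 was at 2022 ± 346 (SD, n = 3) in the controls and 1918 ± 106 (SD, n = 3) under SHC4. MYBL2 was among the most uneven genes, with 1019, 446 and 329.5 in the controls and 722, 354 and 259 under SHC4. In both groups replicate 1 was the highest, and the controls differed 3.09-fold among themselves.

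The spindle checkpoint genes formed the role with the lowest median, -0.41, and all 5 had lower means in UE7T-9 SHC4. In 4 of them the groups did not overlap, as was so in the lower direction for 10.2% of all genes tested. BUB1, a checkpoint kinase at the kinetochore, had 1278, 1259.7 and 1612 in the controls and 996, 929 and 974.7 under SHC4. Its log2 fold change was -0.51 (95% interval -0.81 to -0.21), with an adjusted p of 0.180 by limma and 0.0445 by DESeq2. No CHR letters but 2 CCAAT matches stand in its printed window.

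BUB3, the partner that brings BUB1 to kinetochores, had 5345, 5740.3 and 6539 in the controls and 4709.8, 4054 and 4575 under SHC4. For MAD2L1, the checkpoint protein that holds CDC20, the counts were 963, 905 and 1102 in the controls and 858, 614 and 772 under SHC4. TTK, the kinase at the top of the checkpoint, had 825, 839 and 981 in the controls and 679, 623 and 685 under SHC4. All 3 genes were lower in each UE7T-9 SHC4 library, with log2 fold changes of -0.40, -0.41 and -0.41 in that order. None passed the adjusted threshold in limma (0.246, 0.279 and 0.210) or DESeq2 (0.110, 0.241 and 0.115). BUB1B, which encodes the checkpoint protein BUBR1, was nearly level at -0.01, and 10.2% of its exon bases are shared with the readthrough gene BUB1B-PAK6. That readthrough gene has no value in these data.

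Kinetochore and centromere genes were mixed, with 4 of 6 lower and a median of -0.24. CENPE, a kinesin motor by sequence that the list holds under its centromere name, aligns chromosomes at the spindle equator. Its counts were 1834, 1453 and 1988 in the controls and 1332, 1189 and 1302 under SHC4. No library of one group reached the other, and the log2 fold change was -0.45 (limma adjusted p 0.217, DESeq2 0.107). CENPA, the histone H3 variant that marks centromeres, went the other way in its mean, with 389, 211 and 263 in the controls and 361, 276 and 296 under SHC4. The groups overlapped, the log2 fold change was 0.15 ± 0.23 (SE), and it changed sign to -0.05 without UE7T-9 Cont replicate 2. On the same strand 7% of the exon bases of CENPA are shared with the gene SLC35F6. Of the NDC80 complex, which binds microtubules, NDC80 itself was at 0.02, while NUF2 and SPC25 were at -0.32 and -0.23. CENPF, a large kinetochore protein of G2 and mitosis, was at -0.25. The groups overlapped for the 5 genes of this role other than CENPE.

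The chromosomal passenger complex corrects faulty attachments and guides cytokinesis, and its 4 genes all had lower means. AURKB, its kinase, had the lowest log2 fold change of the 40 at -0.53 (95% interval -1.002 to -0.06). Its counts were 579, 529 and 799 in the controls and 561, 392 and 367 under SHC4. The groups overlapped, as replicate 1 under SHC4 lay above replicate 2 of the controls, and the limma adjusted p was 0.296. CDCA8, BIRC5 and INCENP, for borealin, survivin and the scaffold of the complex, were at -0.37, -0.26 and -0.12 with overlapping groups.

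Spindle assembly genes had the smallest median shift, -0.14, with 5 of 6 lower. CKAP2, a microtubule-stabilizing protein, had 3797, 3525 and 3831 in the controls and 2914, 3103 and 3365 under SHC4, with no overlap and a log2 fold change of -0.25. NUSAP1, which bundles spindle microtubules, had 183, 179 and 216 in the controls and 229, 219 and 219 under SHC4. Its groups stood just apart in the upward direction, at 0.21 ± 0.16 (SE) and a limma adjusted p of 0.586. That value is uncertain: 62.2% of its exon bases are shared on the same strand with the gene AC087721.2. Reads could be split or dropped in counting. AC087721.2 itself has no value in these data, and whether the annotation used held it is not known. TPX2, which activates AURKA on the spindle, HMMR, DLGAP5 and ASPM lay between -0.28 and -0.02, all with overlapping groups.

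Among the genes of anaphase degradation all 3 had lower means. PTTG1, which encodes securin, the inhibitor of sister chromatid separation, had 1270.2, 1288 and 1434 in the controls and 1171, 827 and 1121 under SHC4. Its groups did not overlap and the log2 fold change was -0.37, with a limma adjusted p of 0.317. CDC20 and UBE2C, the activator and the ubiquitin-conjugating enzyme of the anaphase-promoting complex, overlapped between the groups at -0.20 and -0.27.

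Cytokinesis genes were also all lower in their means, 2 of 4 without overlap (10.2% of all genes tested). ANLN encodes anillin, a scaffold of the contractile ring. It had 5640.1, 5769 and 7919.9 in the controls and 4649, 4280.1 and 4567 under SHC4, and its printed window holds adjoining CHR letters on both strands. The difference was -0.50 (95% interval -0.86 to -0.14), with an adjusted p of 0.219 by limma and 0.0742 by DESeq2. ECT2, the exchange factor that activates RhoA at the cleavage furrow, had 2289, 2132 and 2503 in the controls and 1939, 1785 and 1906 under SHC4, a log2 fold change of -0.30. RACGAP1, a partner of ECT2, overlapped at -0.18. PRC1, the bundler of midzone microtubules, is hardly informative: its lowest library held 15 reads, its controls differed 3.37-fold, and 57.6% of its exon bases lie on the same strand in the readthrough gene AC068831.7. For the other 39 genes each library held over 100 reads.

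TOP2A and MKI67 are the usual proliferation markers of the list. TOP2A, the topoisomerase that untangles sister chromatids, had 9576, 7585 and 9626 in the controls and 6782, 7014 and 7339 under SHC4. Its groups did not overlap, and the log2 fold change was -0.33 (95% interval from -0.67 to 0.000121), with a limma adjusted p of 0.347. MKI67, whose product coats mitotic chromosomes, had 7249, 3343 and 4035 in the controls and 4835, 3504 and 3145 under SHC4. Its groups overlapped, the log2 fold change of -0.29 ± 0.28 (SE) rested on UE7T-9 Cont replicate 1, and without that library it was 0.035.

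**Figure D3:**
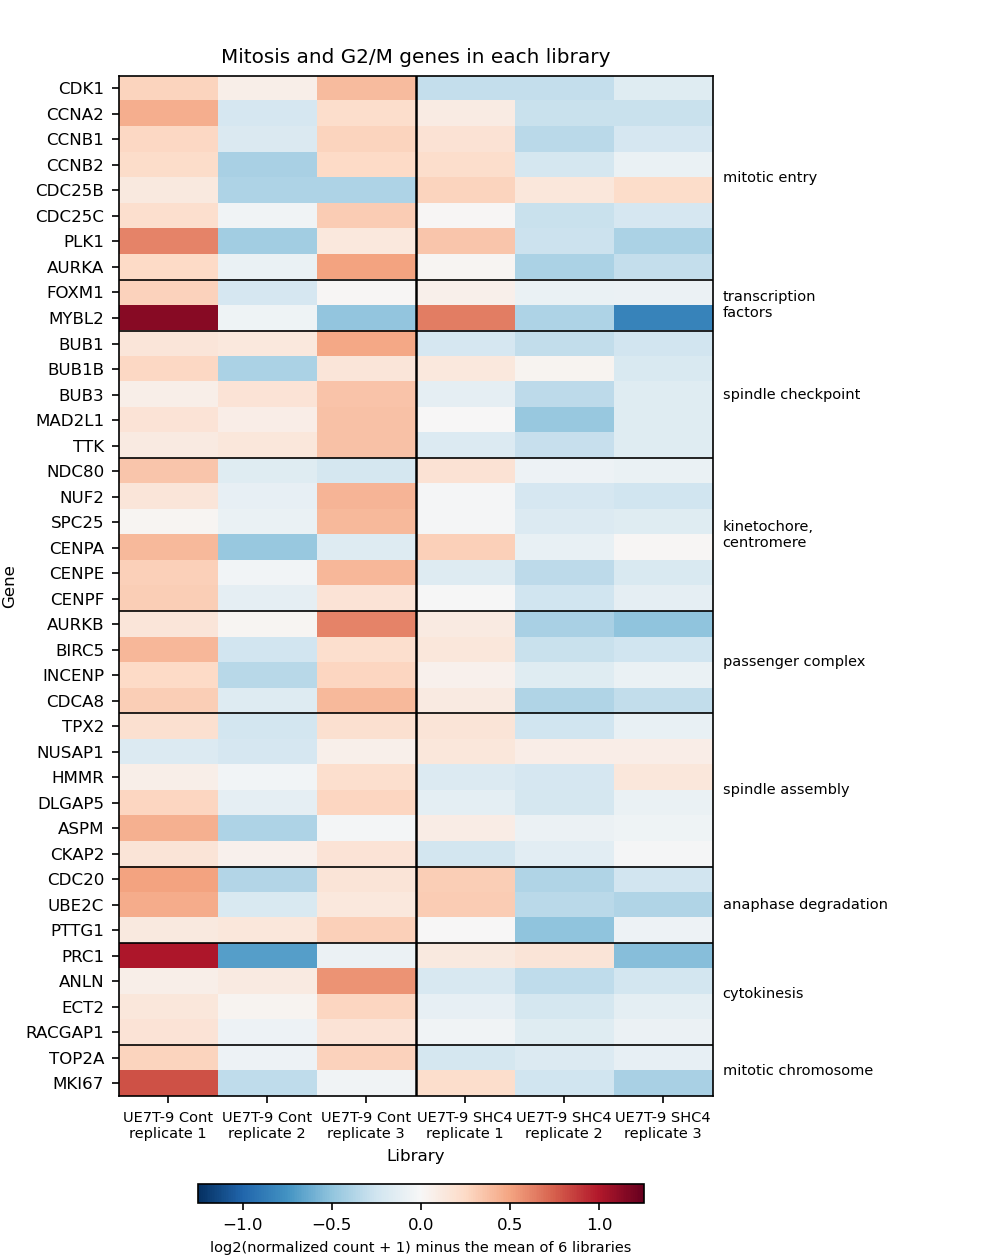
Each of the 40 genes in each of the 6 libraries (horizontal axis), coloured by log2(normalized count + 1) minus the gene's mean over the 6 libraries, red being higher. The darkest red cells are MYBL2, PRC1 and MKI67 in UE7T-9 Cont replicate 1, and the darkest blue one is MYBL2 in UE7T-9 SHC4 replicate 3. The lowest library for 21 genes is UE7T-9 SHC4 replicate 2.

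The controls varied more among themselves than the libraries under SHC4 did for most of the 40 genes. The SD of log2(normalized count + 1) was larger in UE7T-9 Cont than in UE7T-9 SHC4 for 33 of the 40 (82.5%), against 58.9% of the 10220 genes whose mean normalized count reached 200. Its median was 0.263 in the controls and 0.150 under SHC4 for the 40 genes, and 0.178 and 0.149 for those 10220. The mitotic kinesins showed the same, with a larger SD in the controls for 11 of 12 (91.7%), as did 9 of the 10 mesenchymal markers. The share was lower in the other cell cycle lists. It was 76.2% for condensin and sister chromatid genes, 65.7% for other mitotic kinases and regulators and 63.8% for S-phase genes. CDK inhibitors and G1 cyclins had 61.5%, anaphase-promoting complex genes 61.1%, other kinetochore and centromere genes 57.1%, and DREAM and MuvB subunits 53.8%. Within UE7T-9 Cont the highest value was in replicate 3 for 23 genes, in replicate 1 for 17 and in replicate 2 for none, so replicate 2 was never the highest control. In UE7T-9 SHC4 replicate 1 was the highest for 33 genes. Over all 6 libraries the lowest value fell in UE7T-9 SHC4 replicate 2 for 21 genes and in UE7T-9 Cont replicate 2 for 9. Ribosomal protein mRNA took 3.38% and 3.80% of reads in replicate 1 of the controls and of the SHC4 group, against 2.19% to 2.58% in the other 4 libraries, and its part in these differences was not tested.

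Between genes, levels can be compared roughly per length of exon. The length is that of all annotated exons of a gene together, and which of its transcripts the cells made was not examined. On the normalized count per kilobase, TOP2A was the highest in UE7T-9 Cont at 1387 ± 181 (SD, n = 3), followed by TPX2 at 1229.8 ± 200.2 and ANLN at 1072 ± 213, whose spreads overlap. In UE7T-9 SHC4 the highest levels were those of TPX2 at 1129 ± 165, CDC25B at 1123 ± 54.4 and TOP2A at 1094 ± 43.4, again within their spreads. CDC25B thus stood beside the highest genes in UE7T-9 SHC4, and at 846 ± 182 in UE7T-9 Cont near CCNB1 and UBE2C at 902 and 861. At the low end in UE7T-9 Cont were CDC25C at 77.0 ± 9.76, NUSAP1 at 67.1 ± 7.13 and PRC1 at 6.31 ± 3.95. The levels of NUSAP1 and PRC1 are uncertain, since 62.2% and 57.6% of their exon bases are shared with another gene on the same strand.

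**Figure D4:**
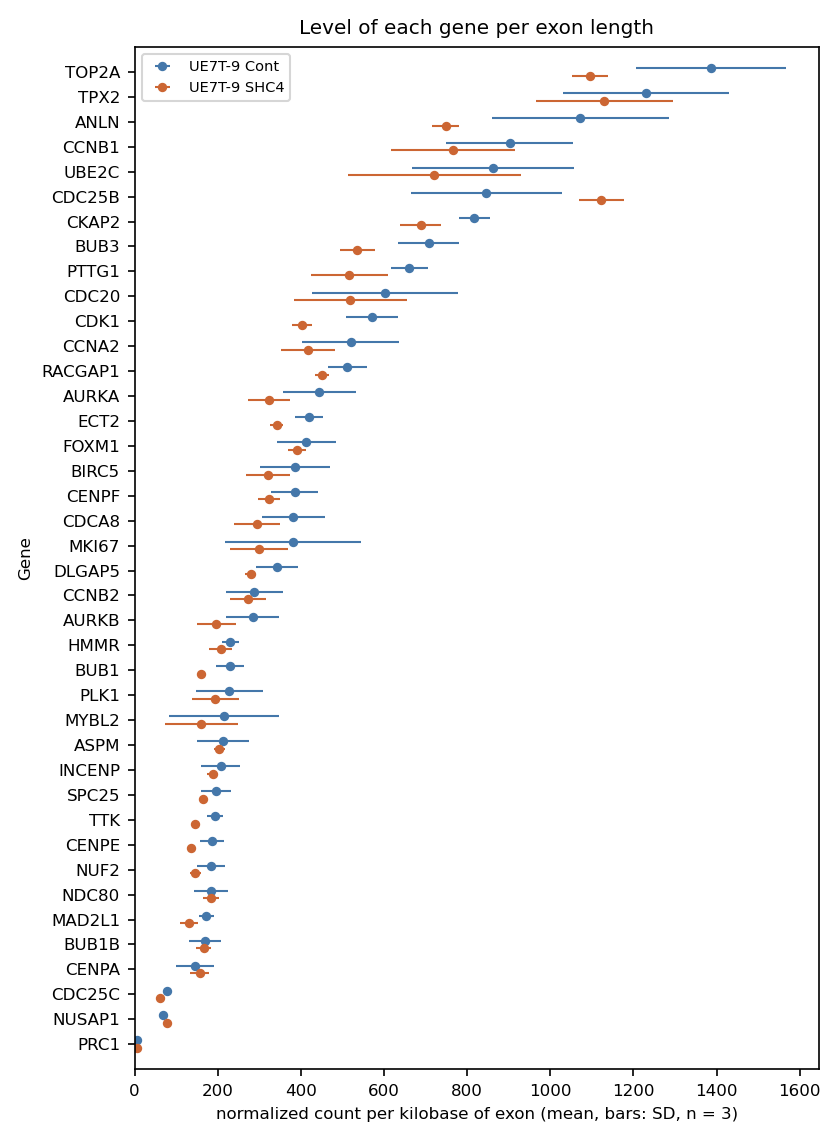
Level of the 40 genes as normalized count per kilobase of exon (horizontal axis; points are means and bars SD of 3 libraries), blue for UE7T-9 Cont and orange for UE7T-9 SHC4, ordered by UE7T-9 Cont. TOP2A leads in UE7T-9 Cont at 1387, and CDC25B is the gene near the top whose UE7T-9 SHC4 mean, 1123, is the higher one.

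The 8 other cell cycle lists set the 40 genes in context, and limma and edgeR called 0 of their genes while DESeq2 called 17, all lower. For the counts that follow, 6.96% of all genes were lower at an unadjusted limma p under 0.05 and 2.08% were called lower by DESeq2. Of 12 mitotic kinesins 11 had lower means, with a median of -0.34, and 4 were lower at an unadjusted limma p under 0.05. In KIF2C, a kinesin that takes microtubules apart at centromeres and was called lower by DESeq2 (adjusted p 0.0264), the counts were 1536, 1330.3 and 1524 in the controls and 1136, 924 and 947 under SHC4. Of 21 condensin and sister chromatid genes 20 were lower, 9 of them at that unadjusted p, with a median of -0.21. DESeq2 called NCAPD3, a condensin II subunit, and SGO1, which shields centromeric cohesin, at log2 fold changes of -0.62 and -0.60. Of 35 other kinetochore and centromere genes 31 were lower, 13 at that p, with a median of -0.25. CENPL, CENPN and CENPI, subunits of the inner kinetochore, were called by DESeq2 at -0.55, -0.51 and -0.53. CENPL was even within groups, with 408, 391 and 391 in the controls and 269.8, 267 and 277 under SHC4.

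Of 35 other mitotic kinases and regulators 29 were lower (median -0.25). At an unadjusted limma p under 0.05 10 were lower and 2 higher, where 7.47% of all genes were higher. There were DESeq2 calls for CKS1B, the small CDK-binding subunit, and the kinase gene MELK at -0.53 and -0.45. The 18 anaphase-promoting complex genes, 11 of them lower, gave 0 calls by limma, DESeq2 and edgeR, while 4 were lower at an unadjusted limma p under 0.05. The 13 DREAM and MuvB subunits also gave 0 calls by those tools, with 11 lower and 2 at an unadjusted limma p under 0.05.

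DNA replication and S-phase genes, which precede mitosis in the cycle, held the most DESeq2 calls. Of 47 genes 42 were lower, the median of -0.23 was close to that of the 40 mitotic genes, 17 were lower at an unadjusted limma p under 0.05 and 8 were called by DESeq2. The 3 with the smallest p were CDC6, the replication licensing factor, GINS1, a helicase subunit, and FEN1, the flap endonuclease, at -0.85, -0.79 and -0.67 by DESeq2 (adjusted p 0.000619, 0.00218 and 0.00362). CDC6 had 1666, 1767 and 1995 in the controls and 1211, 902 and 894 under SHC4. Whether these genes differ from the mitotic genes in their change was not tested.

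CDK inhibitors and G1 cyclins were split in direction, with 6 of 13 lower, 2 of them at an unadjusted limma p under 0.05, and a median of 0.01. CDKN1A, the p21 inhibitor, had 15004, 18517 and 6162 in the controls and 13899, 10365 and 13976 under SHC4, and the controls spanned the other group. CDK6, the kinase partner of D-type cyclins, was called lower by DESeq2 (adjusted p 0.0195), with 711, 752 and 978 in the controls and 564, 486 and 483 under SHC4.

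**Figure D5:**
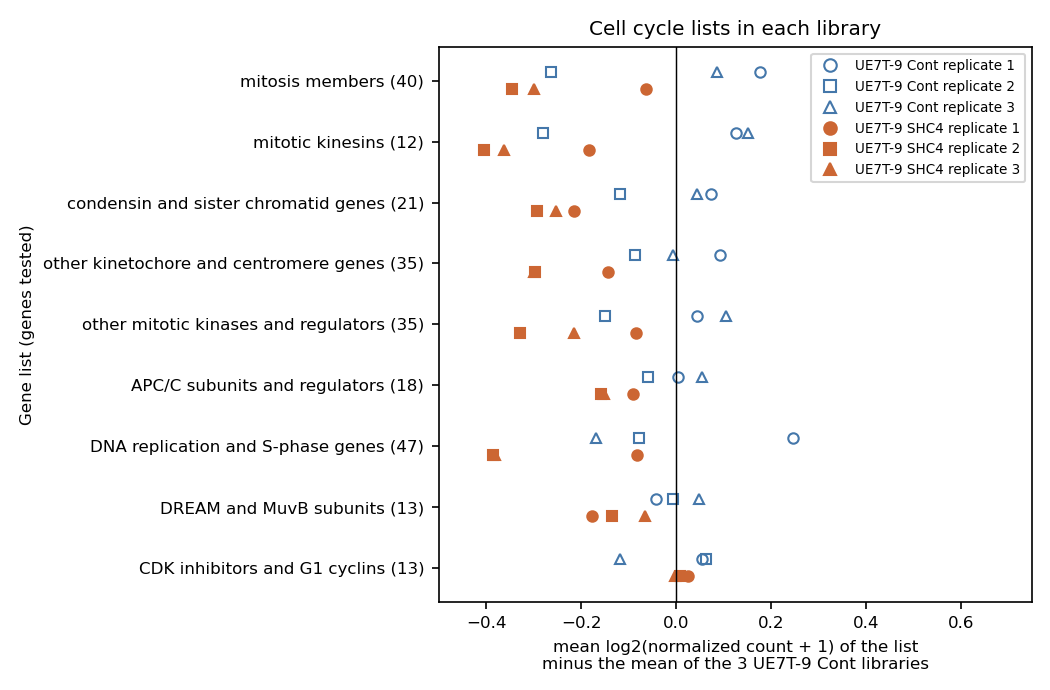
Mean log2(normalized count + 1) of the 40 genes and of the 8 other lists in each library, minus the mean of the 3 UE7T-9 Cont libraries (horizontal axis), open blue symbols for UE7T-9 Cont and filled orange ones for UE7T-9 SHC4. For the 40 genes UE7T-9 SHC4 replicate 1, at a mean log2 of 10.21, lies above UE7T-9 Cont replicate 2, at 10.01.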

How the data were processed

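RNA of 3 UE7T-9 Cont and 3 UE7T-9 SHC4 libraries was sequenced. The deposited signal of a gene in a library is a normalized count that the authors made by dividing the read count by the library's size factor. The submitters' processing notes name HISAT2 2.0.5, featureCounts 1.5.0-p3 and DESeq2. The genome build, the annotation and the strand setting are not given in the sources used here. Dividing by each library's smallest step gave whole reads for 100% of values (within 0.01), and these reads served the count tests.

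Genes are listed by Ensembl identifier, and 100% matched a GENCODE symbol. Samples were grouped by their labels. The test was limma 3.58.1 (lmFit, then eBayes with its trend option), run under R 4.3.3 on log2-transformed values after adding 1. It covered 23040 genes whose mean reached 1, and 5141 genes below it were left out. P-values were Benjamini-Hochberg adjusted over all genes tested and called under 0.05. The pseudocount makes fold changes of low genes smaller. DESeq2 1.42.0 and edgeR 4.0.16 (quasi-likelihood) on the recovered reads, other scalings, filters and pseudocounts, a replicate block and leaving out each library were alternatives. Each fitting script was tested on simulated data. A count of 0 allows up to 3 reads, or a normalized count of 2.50 to 3.53 at these depths, for counting error only.

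The 40 genes and the other lists were chosen with earlier results of these data known. Values of each library are given for CDK1, CCNB1, TOP2A and MKI67, for genes called by limma or DESeq2, for the 3 highest and 3 lowest log2 fold changes, and for up to 12 genes whose groups do not overlap. MYBL2 and COL1A1 were added after their values were seen. From other lists, up to 3 called genes and up to 2 with the highest means could be named. The 3 libraries of a group are labelled biological replicates, and nothing says that they came from separate infections, so p-values measure only the spread between these libraries. Exon lengths and shared exon bases were computed from GENCODE 29, which may not be the annotation the authors used. Promoter windows came from a RefSeq table (GRCh38.p14). In a gene with several entries a match in any counted, and the printed window is the one with the most matches.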

Additional observations from a re-analysis of the deposited data

How the results depend on the processing

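The median log2 fold change of the 40 genes kept its sign under each scaling, filter, pseudocount and test tried, from -0.37 with library size scaling to -0.25 with TMM factors, and from -0.42 to -0.16 when 1 library was left out. Library size scaling moved the median of all genes to -0.10 and the number of genes with each UE7T-9 SHC4 library below each control from 11 (10.2% of all genes) to 19 (13.2%). The number called among the 40 was 0 by limma, 2 by DESeq2, and 0 to 1 with limma leaving out 1 library, the 1 being CDC25B without UE7T-9 Cont replicate 1. Of the other lists limma called 0, DESeq2 17, and limma without 1 library 0 to 10, with 10 without UE7T-9 Cont replicate 1 and 1 without UE7T-9 SHC4 replicate 1. Over all genes limma called 15, DESeq2 669, limma without a low-value filter 43, with library size scaling 24 and with TMM factors 25, and 1311 without UE7T-9 Cont replicate 1, 67 without UE7T-9 SHC4 replicate 1 and 2 to 10 without any of the other libraries. The cause was not tested. In an alternative chosen after seeing the data, DESeq2 without 1 library called 0 to 5 of the 40. Without UE7T-9 Cont replicate 1 it called CDK1, CDC25B, BUB1, BUB3 and ANLN, and 2244 of the 16015 genes it could adjust. Without UE7T-9 SHC4 replicate 1 it called AURKB, and 851 of the 15480 genes it could adjust. In both fits the share called was lower among the 40 than among all genes it could adjust. Each other fit without 1 library called 0 of the 40. The DESeq2 calls of CDK1 and BUB1 were thus lost when any of the 5 libraries other than UE7T-9 Cont replicate 1 was left out. Of the 40 genes, 9 turned from a lower to a higher mean without UE7T-9 Cont replicate 1, and 0 to 2 without any 1 of the others. MYBL2 ranged from -0.81 to 0.08 over the libraries left out. NDC80, at 0.02, turned negative without UE7T-9 Cont replicate 2 (-0.05) or 3 (-0.08) and without UE7T-9 SHC4 replicate 1 (-0.06). Among the genes with values of each library, MKI67 reversed to 0.035 without UE7T-9 Cont replicate 1, in a range from -0.52 to 0.035 over the libraries left out, and CENPA to -0.0498 without UE7T-9 Cont replicate 2, in a range from -0.0498 to 0.39.

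When the replicate numbers entered the limma model as a block, it called 0 of the 40 genes (47 of all genes), the smallest adjusted p was 0.103 and the median stayed at -0.26. With the block 16 of the 40 were lower at an unadjusted limma p under 0.05, against 11 without it. The share of all genes at that p with the block was not counted. Over all genes the number called by limma rose as well, from 15 to 47. The rise among the 40 is therefore not read as a result about them. Over all genes tested, deviations of libraries that share a number correlated at 0.148, 0.013 and -0.007, so the numbers were not taken as pairs. Among the 40 genes replicate 1 was the highest in both groups for 15. Whether the numbers are pairs for these genes was not tested.

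Depth was over 100 reads in each library for 39 of the 40 genes, and PRC1 fell to 15 reads. Adding a minimum absolute log2 fold change of 1 to the limma call left 0 of the 40.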
